A study of Homo sapiens with 6 samples.

Results

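The dystrophin-glycoprotein complex was described here through 8 genes: DMD, UTRN, DAG1, SGCA, SGCB, SGCD, DTNA and SNTB1. They were taken by name, by a rule that uses no measured value, but with earlier results of these data known. All 8 were present among the 35793 genes of the table, 1 row each. RNA had been sequenced from cardiomyocytes grown in culture from human induced pluripotent stem cells, in 2 groups of 3 biological replicates taken on day 15 of differentiation. The wild-type group came from WTC11, an established stem cell line. The knockout group came from 1 derivative of WTC11 in which both copies of STK25, a serine/threonine kinase gene, had been disrupted with CRISPR/Cas9. Neither group was treated, and both were kept in RPMI 1640 with B27. With 1 knockout line, the edit and any other difference between the lines cannot be told apart. The labels do not say whether the replicates were separate differentiations, so p-values measure the spread between these cultures.

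The complex links the cytoskeleton of a muscle cell to the matrix around it. Dystrophin, or its paralog utrophin, holds actin inside the cell and dystroglycan in the membrane; dystroglycan holds laminin outside, by sugar chains that a set of dedicated enzymes build on it. Sarcoglycans brace dystroglycan, while dystrobrevins and syntrophins bind dystrophin and carry signalling proteins. In heart and skeletal muscle the complex is concentrated at costameres, the bands that tie the sarcomeres to the membrane, and loss of dystrophin or of a sarcoglycan causes muscular dystrophy with cardiomyopathy.

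STK25 itself fell from 8119 ± 1168 to 3720 ± 251 normalized counts (SD, n = 3 each; limma adjusted p = 0.00903), to 45.8% of the wild-type mean. This call ended without wild-type replicate 1 (limma adjusted p = 0.0611) and with a block for replicate number (limma adjusted p = 0.0684). The libraries held 22443904 to 53224112 reads in genes. Wild-type replicate 2 and knockout replicate 1 stood apart from their groups on the second principal component (23.8% of the variance). The cells had the RNA of cardiomyocytes, with TNNT2, the cardiac troponin T gene, at 206999 to 359162 normalized counts in the 6 libraries. Of 10 cardiomyocyte markers 1 passed the test for a difference between genotypes, PLN, which was lower in the knockout. The genotypes did not overlap for 6 of the 10, against 33.4% of all tested genes. Besides PLN these were MYH6, lower in the knockout (limma adjusted p = 0.0531), and MYH7, ACTN2, TNNI3 and MYL7, higher (limma adjusted p = 0.0639, 0.0888, 0.0879 and 0.114). The summed level of the 10 was 1342390 to 1739100 normalized counts in the wild type and 1928860 to 3616430 in the knockout. MYL7 alone had 441630 to 739950 and 860614 to 2324410.

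Within the complex, dystrophin RNA rose and alpha-sarcoglycan RNA fell in the knockout, and no other member passed the test. DMD was 2.95-fold higher and SGCA 4.08-fold lower. Utrophin, dystroglycan, beta-sarcoglycan and alpha-dystrobrevin were well expressed in both genotypes without passing, and SGCD and SNTB1 were close to the limit of detection. A gene was called when limma's adjusted p (Benjamini-Hochberg over all 15536 genes with a mean of at least 10 normalized counts) was under 0.05. Of the 8 members 7 reached that mean, all but SNTB1, and 2 were called. Of all tested genes 12.8% were called, 5.97% higher and 6.79% lower in the knockout. With libraries scaled to equal totals the split over all genes was 546 higher and 1466 lower in place of 927 and 1055.

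**Figure D1:**
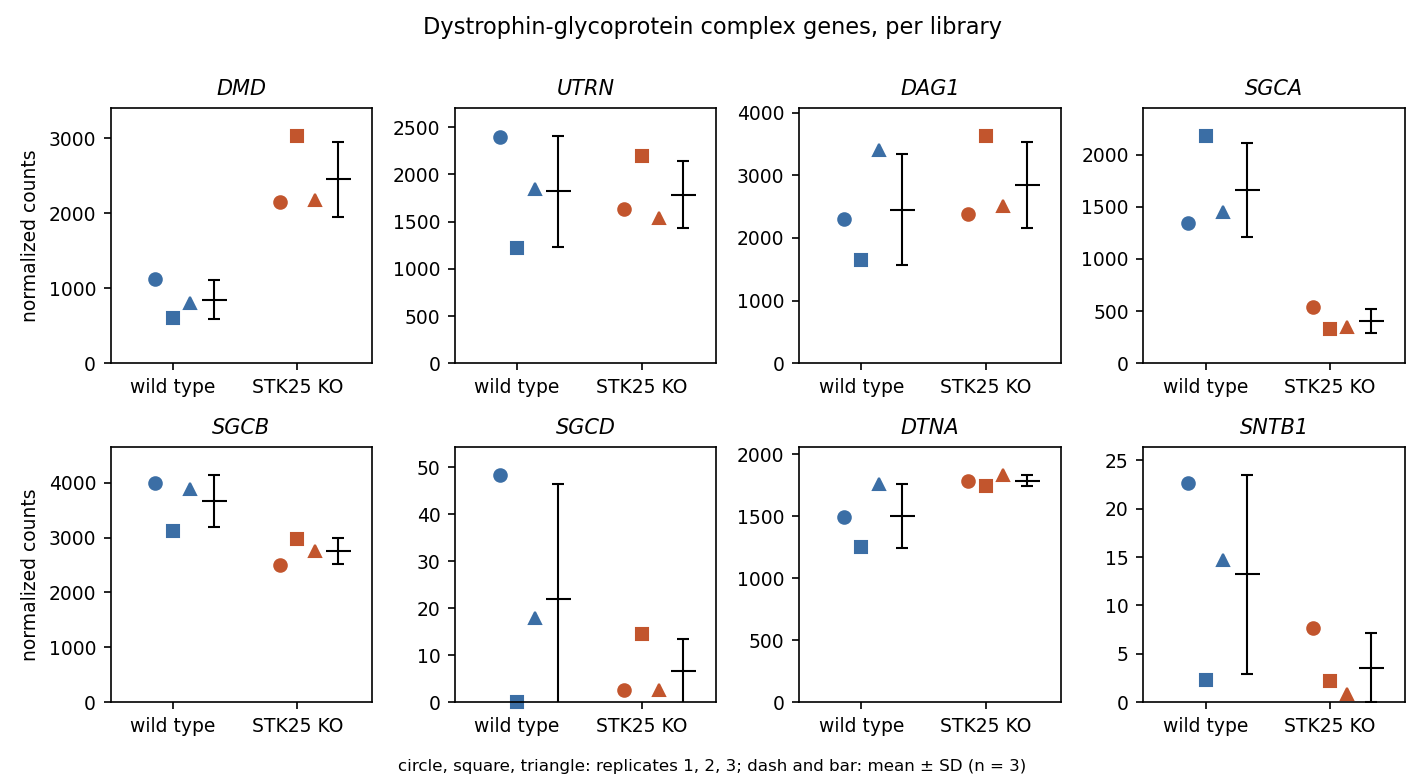
Normalized counts (vertical axes, from 0) of the 8 genes in each library, wild type in blue and knockout in orange. Circles, squares and triangles are replicates 1, 2 and 3, and the dash with its bar is the mean ± SD (n = 3). All 3 knockout points lie above the wild type for DMD and below it for SGCA and SGCB.

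DMD encodes dystrophin, the actin-binding rod of the complex. It lies on the minus strand of chromosome X from 31097677 to 33339441 (GENCODE 29, GRCh38). Its normalized counts were 1122, 609 and 803 in wild-type replicates 1, 2 and 3 and 2153, 3027 and 2174 in the knockout. The lowest knockout library was above the highest wild-type library. The means were 845 ± 259 and 2451 ± 499 (SD, n = 3 each). On the log2 scale the rise was 1.56, SE 0.28 (limma adjusted p = 0.0107). The call ended with libraries scaled to equal totals (log2 fold change 1.28, limma adjusted p = 0.0516). The gene has 14 coding transcripts in that annotation, from 1858 to 13956 bases, which begin at 11 positions, and the deposited totals do not separate them. The short forms made from internal promoters, which lack the actin-binding end, were therefore counted with full-length dystrophin.

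UTRN, on chromosome 6 from 144285701 to 144853034, encodes utrophin, which can take the place of dystrophin in the complex. It had 2391, 1219 and 1848 normalized counts in the wild type and 1633, 2189 and 1537 in the knockout. All 3 knockout values lay inside the range of the wild type. The log2 fold change was 0.0093, with a 95% interval from -0.65 to 0.67 (limma adjusted p = 0.990). Its sign turned with libraries scaled to equal totals (-0.27) or to equal quantiles (-0.046). Wild-type replicate 2 was the lowest library for DMD, UTRN and DAG1 alike.

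Because both genes were read in the same libraries, their ratio does not depend on how the libraries were scaled. UTRN had 2.13, 2.00 and 2.30 normalized counts for each one of DMD in the wild type and 0.759, 0.723 and 0.707 in the knockout. In normalized counts UTRN thus exceeded DMD in all 3 wild-type libraries and was below it in all 3 knockout libraries. Per kilobase of the longest coding transcript, the ratio ran from 2.27 to 2.60 and from 0.800 to 0.858. Shorter forms of DMD were not separated, so which gene had more RNA per length rests on that choice of transcript. The log2 ratio was lower in the knockout by 1.55 (-0.46 ± 0.052 against 1.10 ± 0.10, SD, n = 3 each; exact two-sided permutation p = 0.1, the smallest that 3 against 3 allows; adjusted p = 0.14 over 7 pairs).

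**Figure D2:**
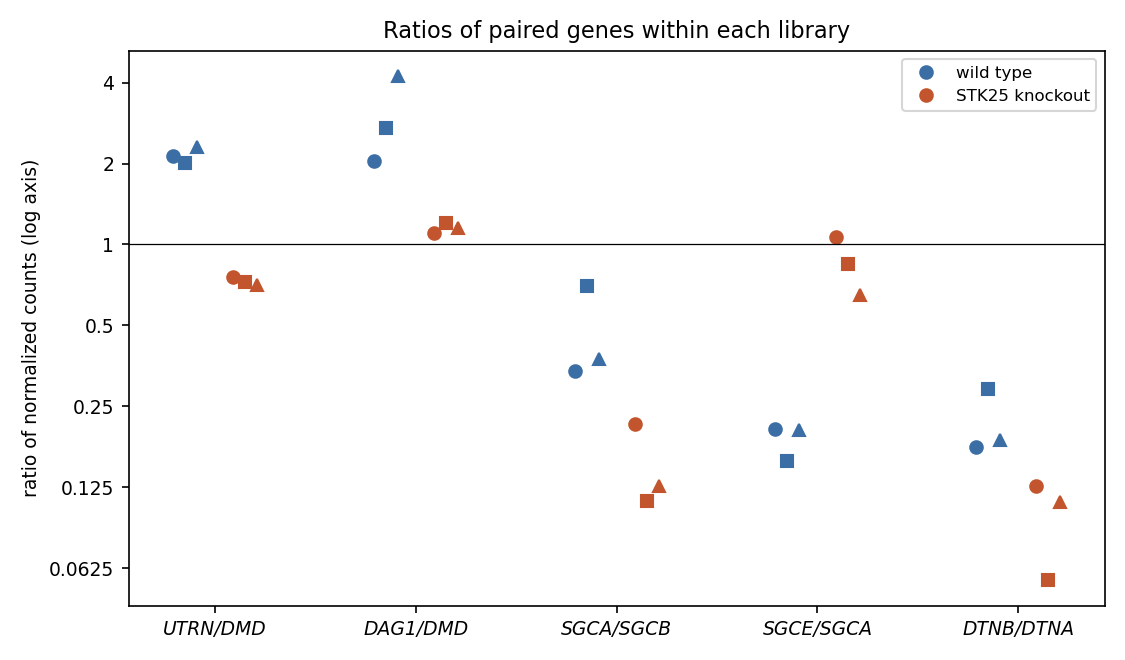
Ratio of the normalized counts of 5 gene pairs within each library (vertical axis, log scale; the line marks 1), wild type in blue and knockout in orange, with circles, squares and triangles for replicates 1, 2 and 3. For each of these pairs the 3 libraries of one genotype lie apart from the 3 of the other; for UTRN/DMD the wild type lies above 1 and the knockout below.

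The sequence before a first exon is shown for 3 of these genes. The muscle start is 1 of several starts of DMD, a gene whose total rose. It can be read beside starts of UTRN and SGCB, which did not pass. RefSeq's promoter table (GRCh38.p14) held an entry for 6 of the 8 members. Each run is the 250 bases before the start, 5′ to 3′ on the gene's strand: DMD, muscle start, chrX:33211550-33211799, minus strand; UTRN, farthest upstream start, chr6:144285085-144285334, plus strand; SGCB, chr4:52038300-52038549, minus strand. Capitals mark matches on either strand to an E-box (CANNTG), an MCAT element (CATTCC), a GC box (GGGCGG), a CArG box or a MEF2 site.
DMD: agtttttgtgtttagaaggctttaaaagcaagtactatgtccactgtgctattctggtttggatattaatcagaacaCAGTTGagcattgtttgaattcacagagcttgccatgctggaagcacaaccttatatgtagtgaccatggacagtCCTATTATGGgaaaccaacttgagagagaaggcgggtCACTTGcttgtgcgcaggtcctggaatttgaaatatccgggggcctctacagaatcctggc
UTRN: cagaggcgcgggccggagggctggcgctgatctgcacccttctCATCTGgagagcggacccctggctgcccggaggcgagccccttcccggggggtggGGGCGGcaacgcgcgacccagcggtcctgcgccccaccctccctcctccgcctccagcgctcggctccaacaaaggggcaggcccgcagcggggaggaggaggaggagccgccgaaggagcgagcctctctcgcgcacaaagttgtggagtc
SGCB: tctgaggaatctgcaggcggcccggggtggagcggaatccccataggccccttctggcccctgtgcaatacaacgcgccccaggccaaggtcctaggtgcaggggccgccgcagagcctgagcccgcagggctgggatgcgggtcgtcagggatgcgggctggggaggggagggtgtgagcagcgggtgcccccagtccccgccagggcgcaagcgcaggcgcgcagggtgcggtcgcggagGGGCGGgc
The DMD window shown held 2 E-boxes and 1 CArG box, the letters that serum response factor is known to bind, which begins 98 bases before the start. The other DMD entries of RefSeq's table held no CArG box. A CArG box was found in 1.16% of the 35116 windows of that length in the table, and an E-box in 61.8%. The UTRN window held 1 E-box and 1 GC box and the SGCB window 1 GC box, a motif in 42.6% of windows. None of the 3 held an MCAT element or a MEF2 site by these letters (11.9% and 2.8% of windows). These letters are a description, and RNA totals do not show which start was used.

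DAG1, on chromosome 3 from 49468703 to 49535618, encodes both subunits of dystroglycan, the receptor at the centre of the complex. It had 2296, 1655 and 3403 normalized counts in the wild type and 2380, 3626 and 2512 in the knockout, and the groups overlapped. The log2 fold change was 0.25 (95% interval -0.45 to 0.95, limma adjusted p = 0.660), and -0.033 with equal totals. Against dystrophin, its own ligand inside the cell, DAG1 stood at 2.05, 2.72 and 4.24 to 1 in the wild type and at 1.11, 1.20 and 1.16 to 1 in the knockout. That log2 ratio was lower in the knockout by 1.31 (exact permutation p = 0.1, adjusted p = 0.14), with no overlap between the genotypes.

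The sarcoglycans form a subcomplex in which several chains, the alpha, beta and delta chains among them, are assembled together in striated muscle. SGCA, the alpha chain, is on chromosome 17 from 50164214 to 50175931. It had 1346, 2178 and 1454 normalized counts in the wild type and 540, 332 and 347 in the knockout. The highest knockout library was below the lowest wild-type library. The means were 1659 ± 453 and 406 ± 116 (SD, n = 3 each), so that the knockout had 24.5% of the wild-type mean. The gene fell by 2.03 on the log2 scale (SE 0.29, limma adjusted p = 0.00431). This call held in all 20 other fits, with log2 fold changes from -2.31 to -1.82 and adjusted p-values up to 0.0277.

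SGCB, the beta chain, is on chromosome 4 from 52020706 to 52038482. It had 3988, 3118 and 3886 normalized counts in the wild type and 2509, 2981 and 2753 in the knockout. The groups did not overlap, as was the case for 3 of the 7 tested members (DMD, SGCA and SGCB) and for 33.4% of all tested genes. The log2 fold change was -0.41, with a 95% interval from -0.84 to 0.02 that reached 0 (limma adjusted p = 0.206). Without wild-type replicate 2 and knockout replicate 1, the 2 libraries that stood apart, it was -0.46 with an adjusted p of 0.0250 (limma). In that fit 3 members were called in place of 2, but 4706 of all 15381 tested genes were called, against 1982 of 15536 in the main fit. The 2 libraries were picked after seeing the data, and SGCB was not called in the other 19 alternative fits.

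The alpha chain had 0.338, 0.699 and 0.374 normalized counts for each one of the beta chain in the wild type and 0.215, 0.111 and 0.126 in the knockout. The log2 ratio of SGCA to SGCB was lower in the knockout by 1.62 (exact permutation p = 0.1, adjusted p = 0.14 over 7 pairs). SGCE encodes epsilon-sarcoglycan, the paralog that takes the place of the alpha chain outside striated muscle. It had 276, 340 and 297 normalized counts in the wild type and 576, 281 and 225 in the knockout (log2 fold change 0.13, 95% interval -0.74 to 0.99, limma adjusted p = 0.871). The ratio of SGCE to SGCA was 0.156 to 0.205 in the wild type and 0.649 to 1.07 in the knockout, without overlap (exact permutation p = 0.1, adjusted p = 0.14).

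SGCD, the delta chain, on chromosome 5 from 155870344 to 156767788, was nearly undetected. The wild-type libraries held 32, 0 and 28 reads and the knockout libraries 2, 13 and 3. In normalized counts these were 48.3, 0 and 17.9 against 2.54, 14.5 and 2.67, and the groups overlapped. The 0 in wild-type replicate 2 allows up to 2.29 normalized counts, the worth of 3 reads there. The log2 fold change of -0.74 had a 95% interval from -4.18 to 2.70 (limma adjusted p = 0.806). No difference could be seen with so few reads and this spread between libraries. The library with 32 reads was the shallowest (22443904 reads in genes), and the one with 0 had 51321607. For each normalized count of SGCB there were 0 to 0.0121 of SGCD in the wild type and 0.000968 to 0.00486 in the knockout.

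DTNA, on chromosome 18 from 34493290 to 34891844, encodes alpha-dystrobrevin, a dystrophin relative that binds dystrophin and syntrophins. It had 1495, 1250 and 1758 normalized counts in the wild type and 1780, 1745 and 1832 in the knockout. The groups overlapped, and the knockout libraries were close together (1786 ± 43.4, SD, n = 3). The log2 fold change was 0.26 (95% interval -0.19 to 0.72, limma adjusted p = 0.443), and -0.018 with equal totals. DTNB, the beta paralog, had 263, 361 and 330 against 225, 98.1 and 202 normalized counts. Those groups did not overlap, but the log2 fold change of -0.93 missed the threshold (95% interval -1.80 to -0.067, limma adjusted p = 0.152). The ratio of DTNB to DTNA was 0.176 to 0.289 in the wild type and 0.0562 to 0.126 in the knockout, without overlap (exact permutation p = 0.1, adjusted p = 0.14).

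SNTB1, on chromosome 8 from 120535745 to 120813273, encodes beta-1-syntrophin, an adaptor that holds channels and signalling proteins at the complex. Its 15, 3 and 23 reads in the wild type and 6, 2 and 1 in the knockout put it under the mean needed for a test, and the groups overlapped. In normalized counts it had 22.7, 2.29 and 14.7 against 7.63, 2.23 and 0.889. SNTB2, the other beta form of syntrophin, had 392 to 506 and 296 to 507 normalized counts (limma adjusted p = 0.571).

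**Figure D3:**
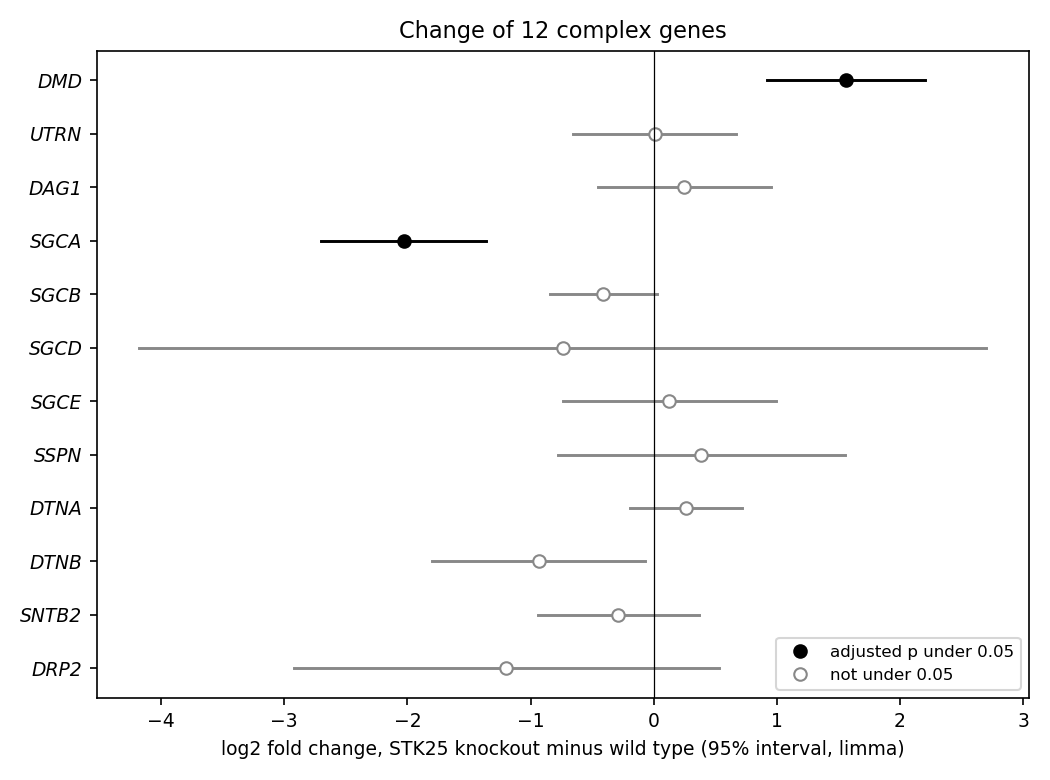
Log2 fold change, knockout minus wild type (horizontal axis), of 12 complex genes, 7 members and 5 further genes, with 95% intervals from limma. Filled black points mark DMD, to the right of 0, and SGCA, to the left, the only 2 with an adjusted p under 0.05; the SGCD interval is the widest.

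Of 12 further genes of the complex, among them SGCE, SSPN, DTNB, SNTB2 and DRP2, 7 reached the mean for a test. With limma 0 of these 7 were called, as with edgeR and DESeq2, and 1 (DTNB) had an unadjusted p under 0.05. Their median log2 fold change was 0.13, and that of the 7 tested members 0.0093, against 0.0052 for all genes tested. The median of the members took both signs over the 20 other fits, from -0.33 to 0.23.

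To order the members, levels were taken per length, since a longer transcript yields more fragments. Normalized counts per kilobase of the longest coding transcript were 1159 ± 316 for SGCA, 827 ± 107 for SGCB, 421 ± 152 for DAG1, 230 ± 39.0 for DTNA, 147 ± 47.5 for UTRN and 60.5 ± 18.6 for DMD in the wild type (SD, n = 3). SNTB1 and SGCD followed with 2.56 ± 1.99 and 2.26 ± 2.51. The first 6 stood in this order in each of the 3 wild-type libraries. Over the wild-type libraries the ranges of these neighbours did not overlap, except for DTNA (192 to 270) and UTRN (98.8 to 194). SNTB1 and SGCD overlapped and changed places between libraries. In the knockout SGCB came first (620 ± 53.3), then DAG1 (487 ± 117), SGCA (284 ± 81.1), DTNA (274 ± 6.66), DMD (176 ± 35.7) and UTRN (145 ± 28.5). There the ranges of SGCB and DAG1, of SGCA and DTNA, and of DMD and UTRN overlapped. Within each of the 3 knockout libraries SGCB was nevertheless above DAG1, and DMD above UTRN. SGCA was above DTNA in knockout replicate 1 and below it in the other two. SGCA was thus first in all 3 wild-type libraries and below SGCB and DAG1 in all 3 knockout libraries, while DMD was below UTRN per kilobase in the wild type and above it in the knockout.

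The genes whose pattern over the 6 libraries was most like a member's were found by the root mean square difference in log2 values, each gene centred on its own mean, among 13035 other genes with a mean of at least 50. For DMD they were WIPF1 (0.109), SRGAP2B (0.140) and SLC2A6 (0.154). SRGAP2B has near-identical copies, so its value is uncertain. For SGCA they were ECHDC2 (0.0938), RAB40B (0.121) and PTPN6 (0.135). The nearest to UTRN was SPEN (0.0415), to DAG1 MTA2 (0.0445), to SGCB PIGQ (0.0351) and to DTNA ANO10 (0.0399). For SGCD and SNTB1 the nearest genes were far less alike, at 0.888 and 0.286.

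Dystroglycan binds laminin through its sugar chains, so the enzymes and ligands of that contact were read next. Of 18 genes that build the chains or supply their sugars 17 were tested, and 2 were called lower in the knockout and 0 higher. That share, 11.8%, was near the 12.8% called among all tested genes. The median log2 fold change was -0.34 (-0.62 to -0.12 over the 20 other fits). RXYLT1, which adds a xylose to the growing chain, had 1874, 1747 and 1598 normalized counts in the wild type and 826, 847 and 744 in the knockout. The genotypes did not overlap, and the gene fell by 1.11 on the log2 scale (limma adjusted p = 0.00877). Without wild-type replicate 1 it was not called (limma adjusted p = 0.0612), and the list then had 0 calls in place of 2.

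The laminin alpha chains, which carry the part of laminin that dystroglycan binds, changed in both directions. LAMA4 had 6002, 6222 and 6098 normalized counts in the wild type and 113, 109 and 174 in the knockout, which had 2.16% of the wild-type mean (log2 fold change -5.55, limma adjusted p = 5.66e-05). LAMA2, the chain of the adult muscle laminin, had 2868, 2469 and 3630 against 1577, 1624 and 1278 (-0.99, limma adjusted p = 0.0231). LAMA1, a chain of the early embryo, had 867, 677 and 1203 against 4328, 4194 and 3626 (2.18, limma adjusted p = 0.00168). LAMA5 had 1980, 1735 and 1893 against 3924, 3560 and 3383 (0.95, limma adjusted p = 0.0119). In each of the 4 the genotypes did not overlap.

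LAMA1 and LAMA4 stayed past the threshold in all 20 other fits. LAMA2 was not called in 6 of them, without wild-type replicates 1 or 3 or knockout replicates 2 or 3, without a variance trend and with the replicate block, and LAMA5 in 4, without wild-type replicates 1 or 3, with equal totals and with the replicate block. The partner chains LAMB1, LAMB2 and LAMC1 overlapped between genotypes (limma adjusted p = 0.895, 0.634 and 0.631). Of the 10 ligand genes 9 were tested, 2 were called higher and 2 lower, and the median log2 fold change was 0.34. That median was 0.055 with equal totals, 0.067 with quantile normalization, 0.13 without knockout replicate 2, 0.62 without wild-type replicate 3 and -0.038 without wild-type replicate 2, and so took both signs. AGRN, the gene of agrin, another ligand, had 524 to 616 and 205 to 482 normalized counts (limma adjusted p = 0.146). In cultures of mixed cells these levels do not tell which cells made the chains. Of 6 endothelial markers CDH5, TIE1 and ERG had at most 3 reads in every library, and limma called 0 of the other 3, with 0 at an unadjusted p under 0.05.

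**Figure D4:**
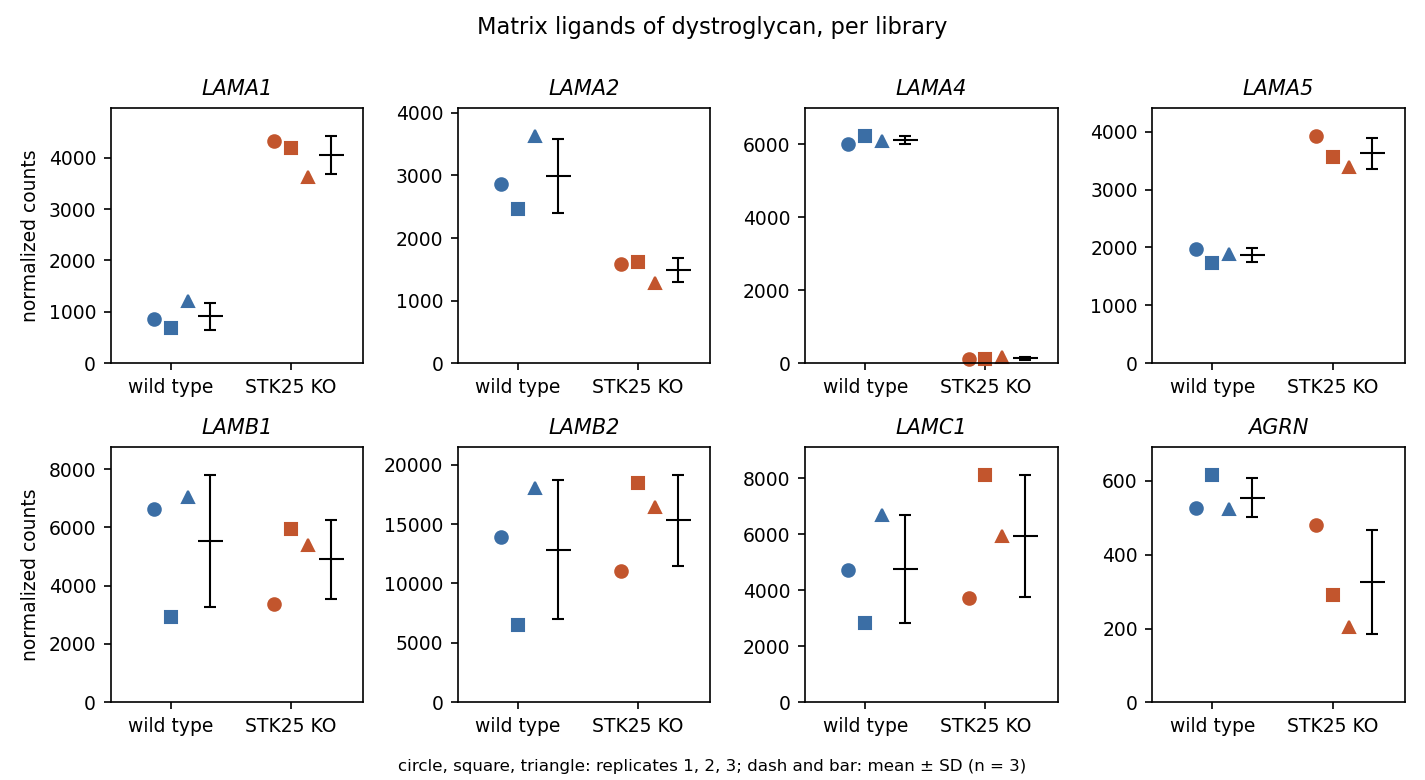
Normalized counts (vertical axes, from 0) of 8 matrix genes whose products bind dystroglycan or pair with its ligands, wild type in blue and knockout in orange, with circles, squares and triangles for replicates 1, 2 and 3 and the mean ± SD (n = 3). The 4 alpha chains (upper row) separate by genotype, LAMA1 and LAMA5 upward and LAMA2 and LAMA4 downward, while LAMB1, LAMB2 and LAMC1 overlap.

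The costamere has a second contact with the matrix, by integrin, talin and vinculin. Of its 18 genes, all tested, 3 were called higher (ITGB1BP2, LIMS2 and SORBS2) and 1 lower (PARVB), with a median log2 fold change of 0.38 (0.095 to 0.60 over the 20 other fits). ITGB1BP2, the gene of melusin, an integrin-binding protein of striated muscle, had a log2 fold change of 1.11 (limma adjusted p = 0.0124). LIMS2, an adaptor of the integrin-linked kinase, had 1.06 (limma adjusted p = 0.00665), and SORBS2, a vinculin-binding adaptor, 0.86 (limma adjusted p = 0.0393). PARVB, the gene of beta-parvin, had -1.20 (limma adjusted p = 0.0418). VCL, the gene of vinculin, had 3393 to 10541 and 7056 to 17422 normalized counts and did not pass (limma adjusted p = 0.326). PARVB was not called in any of the 6 fits that left out 1 library, nor SORBS2 in 5 of the 6, all but the one without knockout replicate 1. ITGB1BP2 was not called without wild-type replicate 1 or 3, nor LIMS2 without wild-type replicate 1.

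Among 6 spectrin and ankyrin genes 1 was called, ANK1, with a log2 fold change of -1.76 (limma adjusted p = 0.0365), which was not called without wild-type replicate 1 or 3 or knockout replicate 1 or 2. Of 10 intermediate filament and linker genes 3 were called higher and 2 lower. PGM5, whose product aciculin binds dystrophin and utrophin, had 477, 601 and 421 normalized counts in the wild type and 108, 63.5 and 78.2 in the knockout. Its log2 fold change was -2.59 (limma adjusted p = 0.00234), and the call held in all 20 other fits. SYNM, the gene of synemin, a filament protein that binds dystrophin and dystrobrevin, had a log2 fold change of 1.12 (limma adjusted p = 0.0195), and was not called without wild-type replicate 1 or knockout replicates 2 or 3. DES, the gene of desmin, had 1798 to 2327 and 2003 to 2402 normalized counts (limma adjusted p = 0.730).

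The keratins 8 and 19, which join costameres to sarcomeres in muscle, moved apart. KRT8 rose by 1.14 on the log2 scale (limma adjusted p = 0.0218) and its partner KRT18 by 1.61 (limma adjusted p = 0.00348), while KRT19 fell by 1.38 (limma adjusted p = 0.00341). KRT8 and KRT18 have many processed pseudogenes, to which reads may have been split. KRT8 was not called in 5 of the 6 fits that left out 1 library, all but the one without knockout replicate 1. Of 10 membrane repair and caveola genes, 1 was called higher, ANXA2 (log2 fold change 0.94, limma adjusted p = 0.0201), and 2 lower, CAV1 (-1.37, limma adjusted p = 0.0128) and ANXA5 (-0.73, limma adjusted p = 0.0326). ANXA2 was not called without wild-type replicates 1 or 3 or knockout replicates 2 or 3, nor CAV1 without wild-type replicate 1, nor ANXA5 in 5 of those 6 fits, all but the one without knockout replicate 1.

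Over all 7 lists, 19 of 77 tested genes were called, against 12.8% of all tested genes. The share was 0% for the further genes of the complex and 11.8% for the sugar chain genes. It was 44.4% for matrix ligands, 22.2% for the integrin contact and 16.7% for spectrins and ankyrins. For filaments and linkers it was 50%, and for membrane repair and caveolae 30%. These lists are short and were chosen with earlier results of these data known. Leaving out wild-type replicate 1 left 5 calls, leaving out the third wild-type library left 9, and leaving out knockout replicate 2 or 3 left 11.

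Dystrophin is also made by smooth muscle, skeletal muscle and nerve cells, and markers of some of these moved with the genotype. Of 6 smooth muscle markers 5 were called higher (ACTA2, TAGLN, CNN1, MYH11 and SMTN) and 0 lower. The remaining marker, MYOCD, went the other way without passing (log2 fold change -0.63, limma adjusted p = 0.107). It had 4165 to 6387 normalized counts in the wild type and 3302 to 3719 in the knockout, without overlap. The summed level of all 6 was 83548 to 96190 normalized counts in the wild type and 495646 to 543358 in the knockout. Most of this was ACTA2, with 45593 to 52943 and 380239 to 396839. Of 7 neural markers 3 were called higher (SOX2, PAX6 and TUBB3), with knockout means of 138, 53.4 and 449 normalized counts. The sums of the 7 were 4560 to 7867 and 7080 to 16921. Most of this was NES, with 4502 to 7747 and 6481 to 16198, which overlapped between genotypes and did not pass (limma adjusted p = 0.340). Of 9 skeletal muscle markers 2 were called higher (CKM and MYH3) and 2 lower (ACTA1 and TNNT3), and MYOD1, MYF5, PAX7 and MYH8 had at most 3 reads in every library. MYOG, another defining gene of the skeletal muscle list, had 0, 20 and 0 reads in the wild type and 2, 3 and 5 in the knockout. Of 8 fibroblast markers 3 were called higher (COL3A1, DCN and TCF21) and 1 lower (COL1A2), with sums of 12950 to 26529 and 8205 to 16655. Of 5 epithelial markers 1 was called lower (CLDN6), and of 5 pluripotency markers 1 higher (TDGF1). Among all tested genes 5.97% were called higher and 6.79% lower. The part of other cells in the change of DMD and SGCA was not tested, and in bulk RNA fewer cells of a type and less RNA per cell cannot be told apart.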

How the data were processed

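The authors deposited 1 table of normalized counts, a signal value per gene and library. From the values, each column held whole reads divided by 1 factor per library, and the factors are not given in the sources used here. The submitters' processing notes list bcl2fastq 2.19, kallisto 0.44.0, DESeq2 1.28.1 and the build GRCh38, without their roles. The annotation and the use of strand are not given in the sources used here, so overlapping genes cannot be separated. Per the labels' protocols, cDNA came from a Clontech Ultra Low v4 kit and libraries from NexteraXT. Taking the smallest value above 0 as 1 read gave whole reads for 100% of values (tolerance 0.01), and 0 columns were left unused.

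Values were tested as log2(value + 1), which understates changes of low genes, with limma 3.58.1 (moderated variance with a trend, Benjamini-Hochberg adjustment) in R 4.3.3. The test took genes whose mean reached 10. Pairs of genes were compared by exact two-sided permutation. The 20 alternative fits covered pseudocounts of 0.1 and 10, filters, scalings, variance settings, a replicate block, edgeR 4.0.16 and DESeq2 1.42.0 on the recovered reads, leaving out each library, and 2 added after seeing the data: a transcript length trend removed, and 4 libraries without wild-type replicate 2 and knockout replicate 1. On data simulated at the means and depths of these libraries (15416 genes), limma recovered 65% of planted changes of 1 on the log2 scale. It recovered 100% of those of 2, with 11 false calls. The simulation gave every gene the same dispersion and had no library that stood apart. Changes were planted only in genes with a mean of at least 50. It therefore checks the code and does not measure recovery or false calls in the real libraries.

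The members and lists were chosen with earlier results of these data known. The text names STK25, all members, the paired genes, the 3 nearest genes of a member, and of each list at most the 3 largest rises and falls among called genes with a mean of at least 50. AGRN, LAMB1, LAMB2, LAMC1, VCL, DES and SNTB2 and the marker genes were named after their values were seen. Some genes of the lists enter the counts and are not reported here by name. The floor of 3 reads covers counting error only.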

Additional observations from a re-analysis of the deposited data

How the results depend on the processing

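SGCA was called in all 20 alternative fits and DMD in 18, with log2 fold changes from 1.28 to 1.79. The members called were 2 in 17 of them, 3 with the 4 libraries, and 1 with equal totals or with the replicate block, under which DMD had a limma adjusted p of 0.0563. Among all genes tested, 1982 were called, against 798 with the replicate block, 3210 with DESeq2, 1864 with edgeR, 4706 with the 4 libraries and 792 to 2192 with 1 library left out. The calls among the 77 tested list genes went from 19 to 4 with the replicate block, to 34 with the 4 libraries and to between 5 and 18 with 1 library left out. The cause was not tested. Same-numbered replicates deviated from their group means with correlations of -0.235, -0.4 and 0.169. Differently numbered ones ran from -0.35 to 0.448, the highest for wild-type replicate 2 with knockout replicate 1. The deviations within a group of 3 depend on each other, so these values cannot decide whether any cultures were paired. In the pairs of genes the block left every difference as it was, and its smallest exact permutation p was 0.25. Equal totals moved the median of all genes to -0.28, and turned the sign of UTRN (-0.27), DAG1 (-0.033) and DTNA (-0.018). UTRN also turned with quantile normalization (-0.046), edgeR (-0.038), DESeq2 (-0.023), the length trend removed (-0.0043), the 4 libraries (-0.20), and in the fits without 1 library, which ran from -0.25 to 0.23. DAG1 ran from -0.0036 to 0.52 in those. The SGCD value of -0.74 became -1.71 with edgeR, -1.74 with DESeq2, -2.02 with the 4 libraries and -2.38 to -0.26 without 1 library (without wild-type replicate 1 its mean was too low for a test), and turned with a pseudocount of 0.1 (0.098), as did its ratio to SGCB (0.51), which ran from -1.86 to 0.78 without 1 library. SGCD and SNTB1 had few reads, at most 32 and 23 in any library.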
